A study of Mus musculus with 6 samples.

Results

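The alkaline phosphatase genes Alpi, Akp3 and Alpl were followed in RNA-seq libraries of mouse small intestine. They were chosen by symbol as the intestinal and the tissue-nonspecific members of the family, with earlier results of these data known. All 3 were found among the 24452 symbols measured. The 6 libraries came from C57BL/6 mice at postnatal day 14, when pups still suckle. Wild type is given for 3 of them and Erk1/2 -/-, loss of both ERK kinases, for the other 3. The labels name neither the allele nor the cells in which it acts, nor whether animals were pooled. The question, from the series title, is what ERK signalling does in the gut after birth, and the 2 genotypes give 1 comparison. Nothing says that each of the triplicates came from its own animal, so a p-value here reflects only how far these libraries spread, which may be technical.

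Alkaline phosphatases remove phosphate groups from many substrates at the outer face of the cell membrane, where a glycosylphosphatidylinositol (GPI) anchor holds them, and they need zinc in the active site. The intestinal forms sit on the brush border of enterocytes, where they dephosphorylate bacterial lipopolysaccharide and free nucleotides and take part in fat absorption. In the mouse, Akp3 encodes the duodenal form and Alpi a form made along more of the gut. Alpl encodes the tissue-nonspecific enzyme of bone, liver, kidney and neutrophils, which hydrolyses pyrophosphate and pyridoxal phosphate.

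Values are the authors' normalised counts, whole numbers already scaled between libraries. Their totals ran from 13641468 to 17153570 per library. Markers of enterocytes were plentiful in every library, with Vil1, which bundles actin in microvilli, between 16362 and 25060. Mapk3, the gene of ERK1, was checked first, since the labels imply its loss. Wild type 1 to 3 had 3142, 2788 and 2004, and the libraries labelled knockout 3363, 2280 and 2734. Its log2 fold change, labelled knockout over wild type as throughout, was 0.09 ± 0.22 (SE; limma adjusted p = 0.819). Scaling by library totals turned it to -0.09. This total over the gene does not bear out the labels, so directions below are those of the libraries labelled knockout. The gene of the second kinase is not analysed here.

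A further feature of the libraries touches the results directly. A segment score was taken as the mean log2 level of genes of the proximal small intestine less the mean for ileal genes of bile acid handling. The proximal genes were Pdx1, Onecut2, Gata4, Cybrd1, Slc40a1, Fabp1, Cck, Gip and Sct, and the ileal ones Slc51a, Slc51b, Fgf15 and Nr1h4. Wild type 1 to 3 scored 3.32, 2.71 and -1.37, and labelled knockout 1 to 3 scored -0.85, 3.97 and 4.07. Wild type 3 and labelled knockout 1 therefore stood apart from the other 4 libraries in the score, though not in each of its genes. Pdx1, Onecut2, Gata4, Cybrd1 and Slc40a1 were lowest in wild type 3 and labelled knockout 1, and the ileal genes of the score highest. Fabp1 and Sct, however, were highest in labelled knockout 1, at 65603 and 1327. Fabp6, an ileal gene left out of the score for low values, was at 1947 there and at 4 in wild type 3. The labels do not name the stretch of gut sampled. Tests of the 3 genes and counts of the gene lists are therefore also given for the other 4 libraries, where 26.4% of all genes passed the limma test, 14.3% higher and 12.1% lower.

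Alpi and Akp3 lie on chromosome 1, pointing away from each other. In the GENCODE vM21 annotation of GRCm38, Alpi runs from 87098002 to 87101606 on the minus strand and Akp3 from 87124973 to 87127912 on the plus strand, with 23366 bases between them. Alpl lies on chromosome 4 from 137741733 to 137796384 on the minus strand. The coding sequences of Alpi and Akp3 were 81.5% identical over 1656 aligned bases, compared with 66.1% for Alpi and Alpl and 64.5% for Akp3 and Alpl. The longest run without a difference is shown because reads that lie wholly inside it cannot be assigned to one gene. It is 68 bases long, and the windows below hold it with its flanks, across exons 2 and 3 of both genes (chr1:87101122-87101366 for Alpi and chr1:87125172-87125416 for Akp3, intron included). Capitals mark the 4 bases that differ between the windows.
Alpi, coding bases 85 to 212: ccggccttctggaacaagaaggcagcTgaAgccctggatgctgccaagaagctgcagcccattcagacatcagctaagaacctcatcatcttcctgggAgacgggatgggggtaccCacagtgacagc
Akp3, coding bases 82 to 209: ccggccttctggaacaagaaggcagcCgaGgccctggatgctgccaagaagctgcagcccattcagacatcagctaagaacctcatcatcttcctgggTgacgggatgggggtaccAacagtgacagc

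Such shared stretches were a small part of the transcripts. Of the 2288 windows of 50 bases in the Alpi transcript, 35 occurred unchanged in Akp3 and 154 with at most 2 mismatches. Those 154 made up 6.73% of the Alpi windows and 9.44% of the 1631 windows of Akp3. Alpl shared no such window with either gene. How the authors treated reads that map to several places is not given in the sources used here, but a limit can be read from wild type 3, where Akp3 stood at 16 beside 43922 for Alpi. At most 0.0364% as many reads as Alpi drew were assigned to Akp3 in that library, whatever their origin.

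The 250 bases before the RefSeq start of each intestinal gene (GRCm38.p6) are shown because the levels of this pair are set against each other below. The RefSeq start of Akp3 lies 5′ of the GENCODE one. Capitals mark matches to the letters searched on both strands. CAAAGTC is a core of sites for the enterocyte factor HNF4. KLF factors bind the letters CCACCC. A core of CDX sites reads TTTAT. The last search was for the GATA factor site AGATAA. These letters were chosen after the sequences had been read, and no match overlapped another.
Alpi, chr1:87101607-87101856, minus strand: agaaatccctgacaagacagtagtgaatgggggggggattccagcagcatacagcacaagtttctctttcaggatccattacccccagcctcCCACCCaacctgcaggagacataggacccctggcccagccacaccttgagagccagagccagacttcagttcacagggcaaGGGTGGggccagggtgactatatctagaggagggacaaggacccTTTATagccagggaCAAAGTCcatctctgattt
Akp3, chr1:87124704-87124953, plus strand: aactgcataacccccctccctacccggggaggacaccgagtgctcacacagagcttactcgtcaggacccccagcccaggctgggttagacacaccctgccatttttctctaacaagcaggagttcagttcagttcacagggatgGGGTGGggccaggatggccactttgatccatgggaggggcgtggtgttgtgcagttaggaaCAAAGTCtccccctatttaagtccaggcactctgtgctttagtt

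The 2 promoters were 66.8% identical over 220 aligned bases. CAAAGTC stood from -19 to -13 in Alpi and from -44 to -38 in Akp3, and 3.80% of 27025 promoters of this length hold it. The CCACCC letters occurred at both genes, as in 27.7% of promoters. TTTAT occurred in Alpi alone of the pair (38.1% of promoters), and AGATAA in neither (10.3%). The first of the Alpl starts in the table also had CAAAGTC, from -214 to -208. These are matches of letters, not measured binding.

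Alpi was the most abundant of the 3 genes in every library, per kilobase as well as in total. Its normalised counts were 47470, 42630 and 43922 in wild type 1 to 3, which differed by 1.11-fold at most. Labelled knockout 1 to 3 gave 47044, 74903 and 85412. Labelled knockout 2 and 3 lay above every wild type library, while labelled knockout 1 lay inside the wild type range, so the groups overlapped. Per kilobase of merged exons (2337 bases for Alpi, 2099 for Akp3 and 4033 for Alpl), Alpi ranked between 10 and 26 among 23379 genes with a known length. It supplied between 0.274% and 0.576% of each library's total.

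The mean of Alpi was 44674 ± 2506 in wild type and 69120 ± 19827 in the labelled knockout (SD, n = 3 each). The log2 fold change was 0.59 ± 0.27 (SE), a 1.5-fold difference with a 95% interval from 0.972-fold to 2.32-fold. It did not pass the limma test over 14686 genes (adjusted p = 0.187), nor the exact two-sided permutation test over the 6 libraries (p = 0.20), whose smallest possible p is 0.10. Without labelled knockout 1 the log2 fold change was 0.84 ± 0.21 and passed (limma adjusted p = 0.0377), as 10.6% of all genes did in the higher direction. Without both libraries with low segment scores it was 0.83 ± 0.18 (limma adjusted p = 0.0184).

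**Figure D1:**
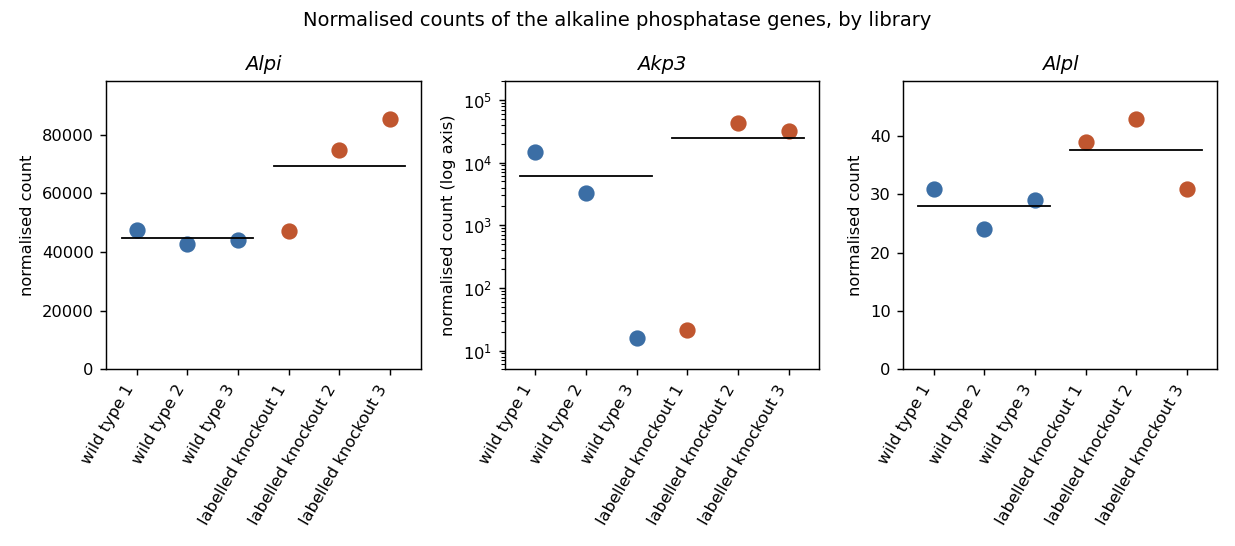
Normalised counts of Alpi, Akp3 and Alpl in each library (dots, blue wild type and orange labelled knockout), with group means as lines. The Akp3 axis is logarithmic and the others start at 0. Akp3 spans 16 to 42748, while Alpi stays between 42630 and 85412 and Alpl between 24 and 43.

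Akp3 varied more within each group than between the groups. The wild type libraries, in order, had 14863, 3293 and 16. Those labelled knockout had 21, 42748 and 31420. The highest wild type library held 929 times the lowest, and the range within the labelled knockout was 2036-fold. Wild type 3 and labelled knockout 1, the libraries with low segment scores, held the lowest 2 values, and the groups overlapped. In bulk tissue, fewer cells of a type and less RNA per cell cannot be told apart.

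The means of Akp3 were 6057 ± 7800 and 24730 ± 22135 (SD, n = 3 each). The log2 fold change was 1.72 ± 3.51 (SE), with a 95% interval from -6.59 to 10.02, and the limma adjusted p was 0.766 (exact permutation p = 0.50). As a fold, that interval runs from 0.0104 to 1039, so even a large difference in Akp3 was not detectable over these 6 libraries. Labelled knockout 2 and 3 lay above wild type 1 and 2. Their mean was 4.09 times that of wild type 1 and 2, compared with 1.78 times for Alpi and 1.35 times for Alpl. In a fit of these 4 libraries Akp3 had a log2 fold change of 2.39 ± 0.61 and passed (limma adjusted p = 0.0303). Calls were common in that fit, as 14.3% of all genes were called higher. The order wild type 2, wild type 1, labelled knockout 3, labelled knockout 2 for Akp3 was close to that of the segment score, in which only the last 2 changed places. In these 4 libraries the score was also higher under the knockout label (3.97 and 4.07) than in wild type (3.32 and 2.71). Label and score therefore cannot be told apart in them. With the score as a covariate over all 6 libraries, the log2 fold change of Akp3 was -0.06 ± 0.32 (limma adjusted p = 0.891) and that of Alpi 0.51 ± 0.20 (limma adjusted p = 0.0898). The cause of the spread in Akp3 was not tested.

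**Figure D2:**
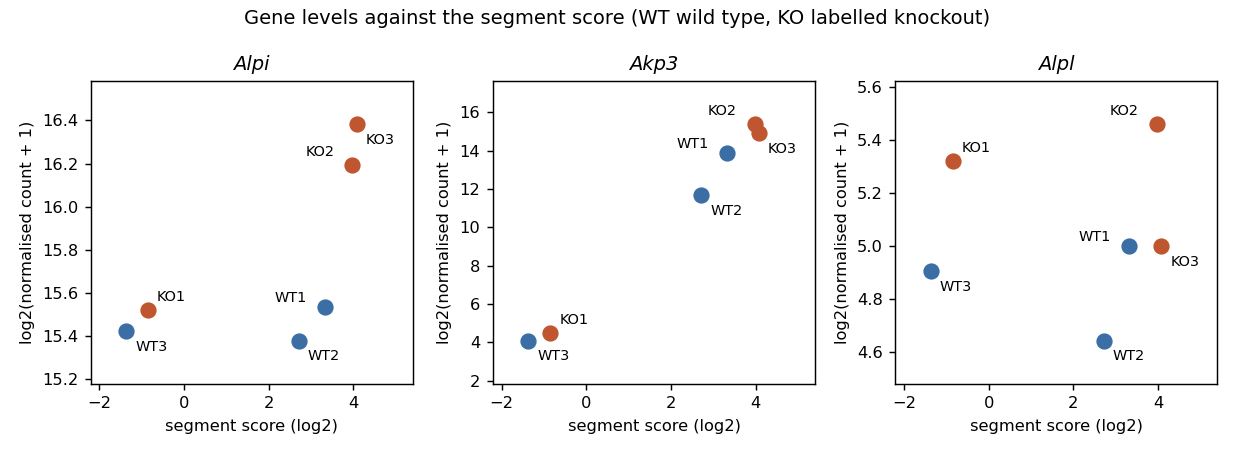
Levels of each gene on the log2(normalised count + 1) scale (y axis) against the segment score on a log2 scale (x axis), with 1 dot per library (blue wild type, orange labelled knockout). Akp3 is low in the 2 libraries with scores of -1.37 and -0.85 and high in the other 4, whereas Alpi in wild type is level across the scores.

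Alpl was low in this tissue. Its normalised counts were 31, 24 and 29 in the wild type libraries. Those labelled knockout gave 39, 43 and 31. The groups met at 31, and no library stood apart. Wild type averaged 28 ± 3.61 and the labelled knockout 37.7 ± 6.11 (SD, n = 3 each). The log2 fold change was 0.41 ± 0.24, with a 95% interval from 0.897-fold to 1.97-fold (limma adjusted p = 0.288, exact permutation p = 0.20). Without wild type 3 and labelled knockout 1 it was 0.41 ± 0.30 (limma adjusted p = 0.342). Per kilobase, Alpi exceeded Alpl by 2082-fold to 4755-fold. In wild type 3, Akp3 was as low as Alpl, at 7.62 beside 7.19 normalised counts per kilobase.

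None of the 3 genes passed over all 6 libraries (limma, 0 of 3, also at an unadjusted p under 0.05), compared with 8.79% of all genes tested, of which 4.85% were called higher and 3.94% lower, each as a share of all tested. All 3 passed the filter on low values and had positive fold changes.

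The make-up of the alkaline phosphatase transcripts followed Akp3. Alpi supplied 76.1%, 92.8% and 99.9% of the summed normalised counts in the wild type libraries and 99.9%, 63.6% and 73.1% in those labelled knockout. The Akp3 shares were 23.8%, 7.17% and 0.0364% in wild type and 0.0446%, 36.3% and 26.9% in the labelled knockout. Inside each group, Akp3 thus ranged from a large part of the sum to almost none. The Alpl shares were 0.0497%, 0.0522% and 0.0660% in wild type and 0.0828%, 0.0365% and 0.0265% in the labelled knockout, all below 0.1%.

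Group differences in these shares were smaller than the spread. The mean share of Alpi was 89.6% ± 12.2 in wild type and 78.9% ± 18.8 in the labelled knockout (SD, n = 3 each; exact permutation p = 0.40). That of Akp3 was 10.3% ± 12.2 and 21.1% ± 18.8 (exact permutation p = 0.40), and that of Alpl 0.0560% ± 0.0087 and 0.0486% ± 0.0300 (exact permutation p = 0.80). Per kilobase the largest Akp3 share was 38.8%, in labelled knockout 2. Over the 4 libraries without wild type 3 and labelled knockout 1, the mean share differed by -16.1 percentage points for Alpi, 16.1 for Akp3 and -0.0194 for Alpl, values given with no test. Across the 3 shares and 2 ratios tested, the lowest p was 0.40, and adjustment can only raise it.

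Summed, the 3 genes gave 62364, 45947 and 43967 in the wild type libraries. The sums under the knockout label were 47104, 117694 and 116863. Labelled knockout 2 and 3 had the highest sums, through both Alpi and Akp3. The log2 ratio of Akp3 to Alpi was -1.68, -3.69 and -11.34 in wild type and -11.06, -0.81 and -1.44 in the labelled knockout, a mean difference of 1.13 (exact permutation p = 0.50). The log2 ratio of Alpl to Alpi lay between -11.38 and -10.20 in all 6 libraries (exact permutation p = 0.80). Over the same 4 libraries the mean differences of these log2 ratios were 1.56 and -0.42.

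**Figure D3:**
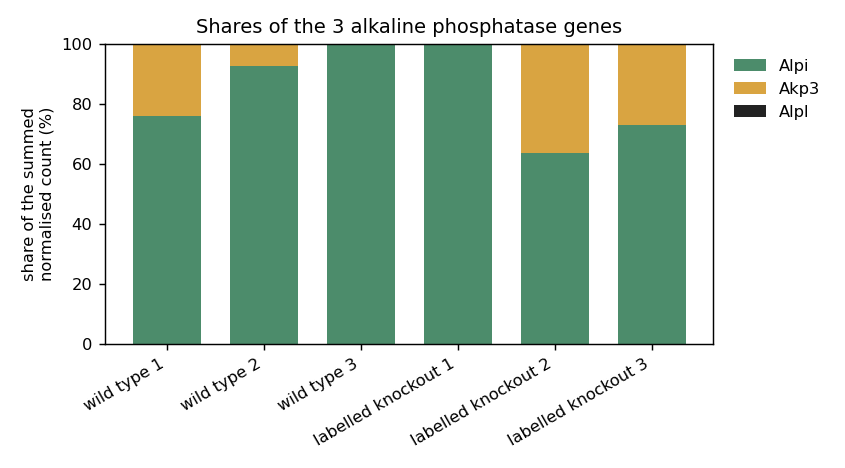
Share of each gene in the summed normalised count of Alpi, Akp3 and Alpl (y axis, percent) for each library (x axis). Akp3 reaches 36.3% in labelled knockout 2 and is not visible in wild type 3 or labelled knockout 1. Alpl, below 0.1% everywhere, is too thin to be seen.

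Alppl2, the neighbouring gene of the embryonic and placental type, was at 3 in each wild type library and at 10, 21 and 9 in labelled knockout 1 to 3. The groups did not overlap. The share of genes without overlap, 37.6%, was taken over genes that passed the filter on low values. Alppl2 missed that filter and was tested only without it, where its log2 fold change was 1.75 ± 0.39 (limma adjusted p = 0.0517). Of the 50-base windows of Alppl2, 3.77% matched Alpi with at most 2 mismatches, so reads of the far more abundant Alpi could reach it. That share of reads was not tested.

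Other hydrolases of the brush border differed in direction. Their list and those in later paragraphs were chosen with earlier results of these data known, so counts of calls only describe them. Of 18 tested, none rose and 2 fell, beside 8.79% called over all genes, with a median log2 fold change of 0.34 compared with -0.01 over all genes. Those that fell were Lct, the lactase that digests milk sugar (-1.22 ± 0.28, limma adjusted p = 0.0446), and Asah2, a ceramidase (-1.40 ± 0.28, limma adjusted p = 0.0348). Lct was at 47541, 49910 and 46808 in wild type and at 28904, 21657 and 13898 in the labelled knockout. Unlike Alpi, its lowest values were in labelled knockout 2 and 3. Without wild type 3 and labelled knockout 1, 8 of the 18 were called higher and 4 lower, beside 14.3% and 12.1% of all genes.

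Tmprss15, the enteropeptidase that activates trypsin in the duodenum, had a pattern like that of Akp3. Wild type libraries held 438, 161 and 0, and those labelled knockout 2, 1818 and 1501. Naaladl1, a peptidase picked after its values were seen, ran the other way, with 20592 in wild type 3 and 16324 in labelled knockout 1 and between 56 and 544 elsewhere. Of the 18 hydrolases, wild type 3 and labelled knockout 1 were both below the other 4 libraries in 3 and both above them in 6.

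**Figure D4:**
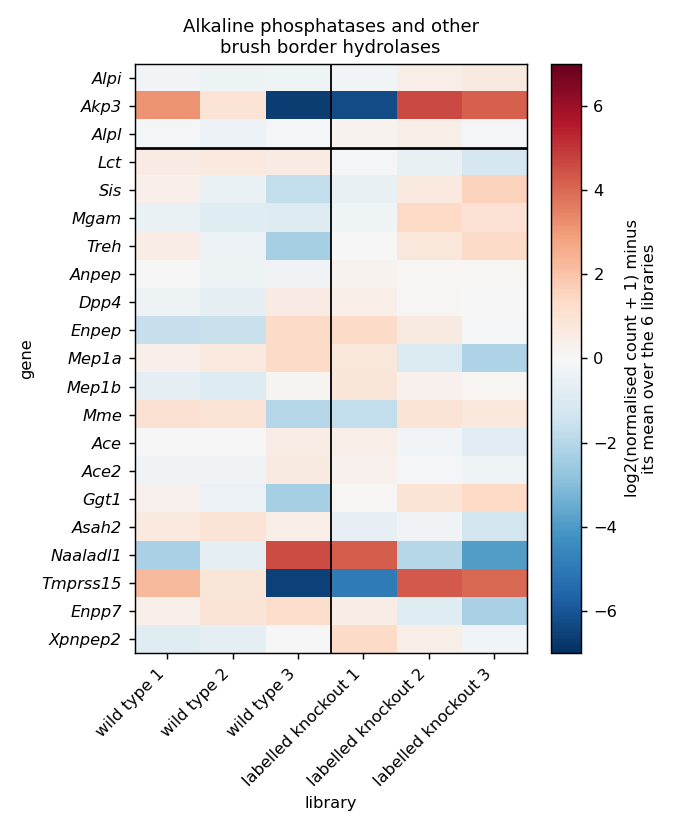
Centred log2 levels of the 3 alkaline phosphatase genes (above the line) and 18 other brush border hydrolases (rows) in the 6 libraries (columns); red is above and blue below each gene's mean over the libraries. Akp3 and Tmprss15 are deep blue in wild type 3 and labelled knockout 1, where Naaladl1 is deep red, and Alpi stays pale throughout.

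Among 10359 named genes with a mean of at least 100, those most like Akp3 across the 6 libraries by Pearson's r of log2 levels were Car2, a carbonic anhydrase (r = 0.997), Il15ra (0.996), Chml (0.996), Tonsl (0.995) and Tmprss15 (0.995). All were low in wild type 3 and labelled knockout 1, so these values rest on that contrast and carry no test. Those most like Alpi were Gsk3a (r = 0.9995), Tcf7l2 (0.996), Mboat2 (0.995), Pafah1b1 (0.995) and Ptk2 (0.992), each highest in labelled knockout 2 and 3. Tcf7l2 encodes a transcription factor of Wnt signalling and had 352, 293 and 294 in wild type and 326, 596 and 768 in the labelled knockout. For Alpl the leading genes were Hopx (0.997) and Nags (0.994), but Alpl itself had at most 43 normalised counts. Alpi and Akp3 themselves had an r of 0.65, Alpi and Alpl 0.47, and Akp3 and Alpl 0.05.

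Of 21 transcription factors of enterocyte genes tested, 2 were called, a share near the 8.79% of all genes. Elf3, an epithelial ETS factor, rose (0.85 ± 0.16 on the log2 scale; limma adjusted p = 0.0295), and Prdm1, a repressor of the mature programme, fell by 1.02 (SE 0.21, limma adjusted p = 0.0372). The list's median was 0.08. Klf4 and Hnf4a, picked after their values were seen because factors of their kinds bind the letters marked above, did not pass. Klf4 had 2104, 1947 and 2521 in wild type and 2473, 4142 and 4334 in the labelled knockout (limma adjusted p = 0.110). Hnf4a had 8780, 8977 and 9377, then 8991, 12942 and 12884 (limma adjusted p = 0.263). Both were highest in labelled knockout 2 and 3 and within the wild type range in labelled knockout 1, as Alpi was. Of Hnf4g and Klf5, factors of the same kinds, only Klf5 was also highest in labelled knockout 2 and 3. In labelled knockout 1 each lay below every wild type library, at 586 for Hnf4g and 2290 for Klf5. Hnf4g was at 1444 in labelled knockout 3, again below every wild type library. The part of these factors in Alpi was not tested. Without the 2 libraries of low segment score, 6 of the 21 were called higher and 2 lower, beside 14.3% and 12.1% of all genes.

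Genes that make and attach the GPI anchor had no call. Of 29 tested, 23 had positive fold changes, with a median of 0.23 compared with -0.01 over all genes. At an unadjusted p under 0.05, 5 were higher and 0 lower (limma), beside 15.8% and 14.5% of all genes, so the higher count was near the background. Pigt, a subunit of the transamidase that joins the anchor to the protein, was the most abundant of the list. It had 2104, 1687 and 2057 in wild type and 3570, 2556 and 2813 in the labelled knockout (0.60 ± 0.18, limma adjusted p = 0.0746). Its groups did not overlap, as in 37.6% of all genes tested. Pigq, which works at the first step of anchor synthesis, had 1139, 1013 and 1037 and then 994, 1289 and 1247, with overlap. Without wild type 3 and labelled knockout 1, 3 of the 29 were called higher and 0 lower, beside 14.3% and 12.1% of all genes.

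Enzymes and carriers of extracellular nucleotides and phosphate, the substrates and product of these enzymes, split in direction. Of 21 tested, 3 were called, beside 8.79% of all genes. Entpd8, an ectonucleotidase, rose by 0.76 ± 0.14 (limma adjusted p = 0.0253). Enpp2, which makes lysophosphatidic acid, changed by -1.77 ± 0.19 (limma adjusted p = 0.00881) and Enpp5 by -1.37 ± 0.26 (limma adjusted p = 0.0289). Ada, adenosine deaminase, acts on the adenosine that dephosphorylation of AMP yields and was picked after its values were seen. It had 6229, 2466 and 273 in wild type and 5997, 40942 and 62356 in the labelled knockout, with the high values again in labelled knockout 2 and 3 (3.94 ± 1.29, limma adjusted p = 0.0967). Without the 2 libraries of low segment score, 5 were called higher and 7 lower, beside 14.3% and 12.1% of all genes.

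Genes that sense or inactivate lipopolysaccharide, a substrate of the intestinal enzymes, had no call. Of 12 tested, 3 were higher and 1 lower at an unadjusted p under 0.05 (limma), close to the 30.3% of all genes in either direction. The median was 0.13. Ticam1, an adaptor of TLR4, had 1195, 1182 and 1209 in wild type and 1494, 1450 and 1450 in the labelled knockout (0.29 ± 0.11, limma adjusted p = 0.142). Its groups did not overlap, as in 37.6% of all genes tested, and the difference was small. The largest changes of the list went in opposite directions, also with the groups apart. They were in Cd14 (1.54 ± 0.38, limma adjusted p = 0.0529) and Aoah (-1.72 ± 0.45, limma adjusted p = 0.0603). In the 4 libraries with high segment scores, 2 of the 12 were called higher and 1 lower, near the 26.4% of all genes.

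Some markers of enterocyte age differed between the groups, while others overlapped. Of 8 genes of the weaned epithelium 4 rose, beside 4.85% of all genes. The weaned and suckling lists were chosen with earlier results of these data known, so their counts are no independent test. The largest changes were in Duox2, an oxidase that makes hydrogen peroxide, and its maturation factor Duoxa2. Duox2 had 29, 27 and 28 in wild type and 396, 559 and 325 in the labelled knockout, and Duoxa2 had 2, 8 and 11 and then 380, 201 and 122. The others were Krt20, a keratin of surface cells, by 1.94 ± 0.32 (limma adjusted p = 0.0219), and Fut2, which fucosylates surface glycans, by 2.27 ± 0.39 (limma adjusted p = 0.0237). Sis, Treh, Arg2 and Mgam were not called (limma adjusted p = 0.266, 0.214, 0.234 and 0.0752). The groups overlapped in Sis, Treh and Arg2 but not in Mgam. The summed level of the 8 genes was between 7451 and 14390 in wild type, 18314 in labelled knockout 1, and 41721 and 43132 in labelled knockout 2 and 3. Of 10 suckling genes 2 fell (Lct and Prdm1), beside 3.94% of all genes, and all 10 fold changes were negative. The suckling sum ran from 157111 to 290017 in wild type, was 219275 in labelled knockout 1, and was 64263 and 43911 in labelled knockout 2 and 3. In both sums labelled knockout 1 was nearer to wild type than labelled knockout 2 and 3 were, as for Alpi. Single genes differed from the sums: in Duox2, Duoxa2 and Fut2 labelled knockout 1 lay farther from wild type than labelled knockout 3. With wild type 3 and labelled knockout 1 left out, 6 of 7 weaned genes were called higher and 8 of 10 suckling genes lower. Of all genes, 14.3% were called higher and 12.1% lower in that fit, in which label and segment score cannot be told apart. In the suckling list, Amn, Asl, Glb1, Ctsl and Lgmn were highest in wild type 3 and labelled knockout 1, the libraries of low segment score. Lgmn had 53511 and 33686 there and between 3244 and 6163 elsewhere. The other tested genes of that list did not share this order. The part of gut segment in these sums was not tested.

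Some markers of other cell types also differed between the groups. Of 6 Paneth cell genes tested 3 rose, with sums of 2395 to 9943 in wild type and 14003 to 22440 in the labelled knockout. Of 8 goblet cell genes 2 rose, with sums of 46639 to 73408 and 94529 to 134932. Of 7 B cell genes tested 6 fell, with sums of 425 to 593 and 124 to 191. Over all genes, 4.85% were called higher and 3.94% lower. The marker lists, too, were chosen with earlier results known, and their counts only describe them. In the 4 libraries without wild type 3 and labelled knockout 1, 5 of 6 Paneth and 4 of 8 goblet genes were called higher. There, 4 of 5 B cell genes were called lower. That fit called 14.3% of all genes higher and 12.1% lower. The part of enterocyte age or of these cell types in the level of Alpi was not tested.

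Cell types that can carry Alpl were checked by their markers. Of 13 neutrophil genes 7 were tested. S100a8, S100a9 and Ltf, which epithelium can also make, rose, and Retnlg fell, beside 4.85% called higher and 3.94% lower over all genes. The summed level was 633 to 1114 in wild type and 1124 to 2566 in the labelled knockout. The granule genes Elane and Mpo were at no more than 1 and 5 in any library. In other neutrophil genes the groups did not overlap: Ngp had 5, 14 and 2 and then 34, 17 and 87 (limma adjusted p = 0.0777), Mmp8 1, 1 and 0 and then 12, 5 and 17, and Ly6g 0, 0 and 1 and then 11, 5 and 3. Groups were likewise apart in Csf3r (limma adjusted p = 0.222), as in 37.6% of all genes tested. Mmp8 and Ly6g missed the filter on low values, so that share does not cover them. Camp, Mmp9 and Cxcr2 overlapped between the groups, and Camp reached 17. Of 8 endothelial genes, Cdh5, Pecam1 and Kdr fell, beside 3.94% of all genes, and all 8 fold changes were negative. The endothelial sums were 8765 to 10928 in wild type and 6355 to 8537 in the labelled knockout. Of 7 bone and cartilage genes 2 were tested. Dmp1 rose, and Runx2 had 99, 114 and 81 in wild type and 63, 54 and 73 in the labelled knockout (limma adjusted p = 0.107). The other bone and cartilage genes, Sp7 and Bglap among them, were at no more than 11. Of 6 liver genes, Ttr had 443, 712 and 1000 and then 2523, 149 and 121, and the others were at no more than 8. Genes of the exocrine pancreas, which adjoins the duodenum, summed to 44350 in wild type 1 and to between 272 and 7825 elsewhere. Leaving out wild type 3 and labelled knockout 1, 2 of 5 neutrophil genes were called higher and 1 lower, all 8 endothelial genes lower, and none of 6 pancreas genes. The shares of all genes in that fit were 14.3% higher and 12.1% lower. The part of these cell types in Alpl or Akp3 was not tested.

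**Figure D5:**
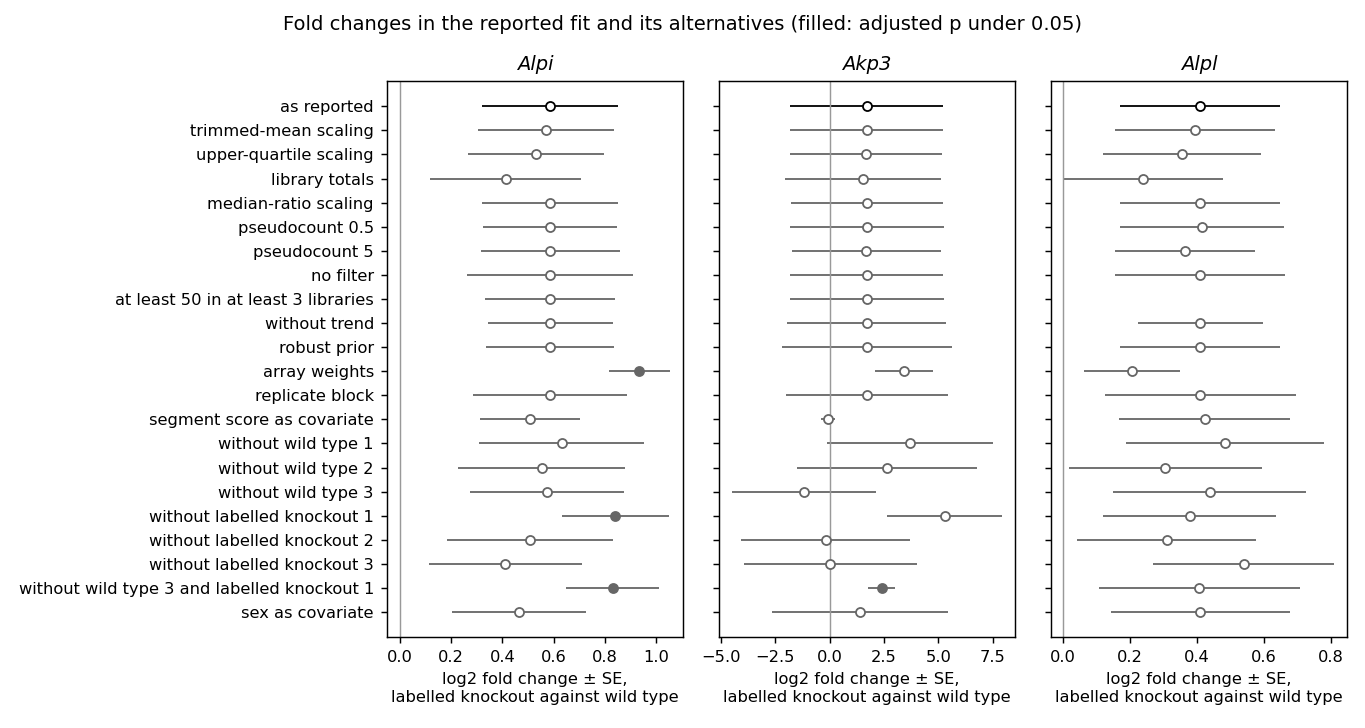
Log2 fold change with its SE (x axis) of each gene in the reported fit and in each alternative (y axis), filled where the limma adjusted p is under 0.05. Alpi is positive in every setting and filled in 3, Akp3 changes sign and is filled in 1, and Alpl is filled in none and has no point where the filter of 50 removes it.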

How the data were processed

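PolyA libraries were made from Trizol RNA with the Illumina TruSeq kit, per the labels' protocols. TopHat2 2.1.0, HTSeq 0.6.0, DESeq2 and mm10 are named per the submitters' processing notes, without order. For annotation, strand setting and multiply mapped reads the sources used here give nothing. What the authors deposited is a score for each symbol: normalised counts rounded to whole numbers. Reads per library are therefore unknown, and no counting interval is given.

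limma 3.58.1 in R 4.3.3 was run on log2(normalised count + 1) with trend set and two-sided tests. A gene entered if 3 or more libraries reached 10, with Benjamini-Hochberg adjustment over 14686 genes and a threshold of 0.05. It had 4 residual and 2.99 prior degrees of freedom. Fold changes on this scale are too small for low genes. Shares and ratios were tested by exact permutation. Lengths, positions and transcripts came from GENCODE vM21 and promoters from RefSeq GRCm38.p6. The fit was tested on simulated data. The members and 31 gene lists were chosen with earlier results of these data known. Named genes were the members, up to 4 called genes of a list by p-value with the groups apart, or its 2 most abundant, and the 5 genes most like each member, named in part. Same-numbered libraries correlated at -0.37, 0.30 and -0.16 after group means were removed. With 3 libraries per group this cannot settle whether the numbers pair them, and the main fit did not pair them.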

Additional observations from a re-analysis of the deposited data

How the results depend on the processing

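Alpi kept a positive log2 fold change in all 21 alternatives and passed in 3: array weights (0.94, where the weights did not converge), without labelled knockout 1, and without wild type 3 and labelled knockout 1 (0.83). Alpl was positive and uncalled wherever it was tested. Akp3 passed once, without wild type 3 and labelled knockout 1 (2.39), and was negative with the segment score as a covariate (-0.0639), without wild type 3 (-1.18) and without labelled knockout 2 (-0.18). Leaving out 1 library at a time gave log2 fold changes from 0.41 to 0.84 for Alpi, -1.18 to 5.28 for Akp3 and 0.31 to 0.54 for Alpl. The group difference in share ran from -21.2 to -3.12 percentage points for Alpi, from 3.12 to 21.3 for Akp3 and from -0.0244 to 0.0037 for Alpl. The log2 ratio difference ran from -1.75 to 4.44 for Akp3 to Alpi and from -0.46 to 0.13 for Alpl to Alpi. Counts of genes called moved from 1291 to between 28 and 2998 in these fits. They were 9117 with array weights, 4051 with the segment score, 3762 without wild type 3 and labelled knockout 1, and 459 with sex, read from Xist and Ddx3y and added after seeing the data, as a covariate. The share of higher calls was 55.2%, 44.5% with upper-quartile scaling and 29.7% with library totals, which moved the median of all genes to -0.19. The cause was not tested.

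With the replicate number as a block, 64 genes were called, none of them a member. The adjusted p was 0.288 for Alpi, 0.793 for Akp3 and 0.407 for Alpl. The sign-flip test of 3 pairs cannot go below 0.25.

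Mapk3 was negative with library totals (-0.0888), array weights (-0.0306) and without wild type 3 and labelled knockout 1 (-0.25), and ran from -0.10 to 0.22 with 1 library left out. In such fits Tmprss15 ran from -0.40 to 5.32 and Naaladl1 from -3.51 to 0.92, and Naaladl1 was 0.12 with the segment score. Over the alternatives, the calls in the brush border list ran from 0 to 9 higher and 0 to 6 lower, in the GPI anchor list from 0 to 13 and 0 to 2, and in the transcription factor list from 0 to 11 and 0 to 4. Those of nucleotide and phosphate genes ran from 0 to 8 and 0 to 9, of the lipopolysaccharide list from 0 to 5 and 0 to 1, of weaned genes from 1 to 8 higher and of suckling genes from 0 to 9 lower. Alpl and Alppl2 are limited by low counts.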

Other observations

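Genes beside the alkaline phosphatases had no call. Within 250 kb of Alpi and Akp3, 11 symbols had values, the members included. None of the 6 tested, again with the members, was called (limma), beside 8.79% of all genes. Ecel1, an endopeptidase gene 19743 bases from Akp3, had 8, 11 and 2 in the wild type libraries. Those labelled knockout had 1, 18 and 42. Eif4e2, which encodes a cap-binding protein, was lowest at 914 and highest at 1771, in labelled knockout 1. The muscle acetylcholine receptor genes Chrnd and Chrng were at 1 or 0 in every library. Within the same distance of Alpl, 5 of 7 symbols were tested and none was called, beside the same 8.79%. Rap1gap, 11872 bases away, had 650, 499 and 462 in wild type and 723, 792 and 945 in the labelled knockout (log2 fold change 0.62 ± 0.18, limma adjusted p = 0.0775). Its groups did not overlap, as in 37.6% of all genes tested.

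Genes of zinc supply and storage, the metal these enzymes need, were also without a call over the 6 libraries. Of 14 tested none passed, with 1 higher and 0 lower at an unadjusted p under 0.05 (limma), beside 15.8% and 14.5% of all genes, and a median log2 fold change of 0.22. Without wild type 3 and labelled knockout 1, 1 was called higher and 1 lower, beside 14.3% and 12.1% of all genes. Mt1, a metallothionein that stores zinc, had 12686, 11177 and 4923 and then 15100, 8992 and 3660. Slc39a4, the zinc importer of enterocytes, had 2873, 3769 and 7555 and then 6571, 3688 and 5900.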
